A study of Homo sapiens with 16 samples.

Results

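Genes that mark the nephron progenitor and the early nephron were followed through human kidney organoids between day 21 and day 29 of culture, with and without TNFα. The 9 genes were taken by name: the nephron progenitor factors SIX2, CITED1, EYA1, SALL1 and OSR1, and the early nephron genes PAX2, PAX8, LHX1 and JAG1. They are 9 of 27650 genes listed in the larger bulk time course, and all 9 are also among the 36601 genes of the single-cell matrices. The question was whether the programme that makes new nephrons was still present, or was spent, over this window.

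The bulk libraries are labelled as organoids of UM77-2, a human embryonic stem cell line, so they come from 1 line, while the single-cell labels name no line. Bulk RNA was made from collected organoid spheroids. Set 1 had 1 library on each of days 21, 25 and 29. Set 2 had 2 libraries, Org1 and Org2, on each of the same days. A TNF set had 1 library each of vehicle control (VC) and TNF at 24 h and at 48 h. TNFα was given at 5 ng/ml, and collection was at day 25. The single-cell libraries, D24 Ctrl 24h and D24 TNF 24h, came instead from whole wells, so they also hold cells from outside the spheroids. These wells were treated at day 23 for 24 h with 5 ng/ml TNFα or, per the paper, with vehicle (DPBS). No other agent or genotype separated the groups.

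In the developing kidney, SIX2 and CITED1 mark the self-renewing cap mesenchyme that surrounds the ureteric bud tips, while EYA1, SALL1 and OSR1 act with or before SIX2 to establish and keep that pool. On induction by WNT signals the progenitors pass through a mesenchymal-to-epithelial transition into the renal vesicle, where PAX8, LHX1 and the Notch ligand JAG1 come on, and PAX2 is active both in the cap mesenchyme and in the vesicle. In the human kidney nephron formation ends before birth, when the progenitor pool is used up. None of these genes is restricted to the kidney: SIX2, EYA1 and OSR1 are also known from mesenchyme and skeletal muscle lineages, and LHX1, PAX2 and PAX8 from parts of the nervous system.

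Total counts were 25508651 to 29408687 reads per library in set 1, 19073609 to 30282025 in set 2 and 49948198 to 59246286 in the TNF set. Bulk levels are log2(CPM + 1), where CPM is the read count scaled to a common library size, so a gene without reads is close to 0 and changes of low genes are understated. The Ctrl single-cell library held 11906 cells with a median of 6358.5 UMIs and the TNF library 23160 cells with a median of 2599. The libraries shared 74 cell barcodes, which were 0.622% of the Ctrl cells and 0.32% of the TNF cells. The labels do not say whether Org1 and Org2 were separate cultures, so p-values measure only the spread between these libraries, which may be technical.

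Upstream sequences are shown for 4 members on which the time course turns: SIX2, 1 of the 2 progenitor factors that rose, and PAX8, PAX2 and JAG1, the early nephron genes that fell. Each is the stretch of 250 bases before the transcription start in RefSeq, on GRCh38.p14, printed 5′ to 3′ on the strand of the gene, and 5 of the 9 members had an entry in the table used. Capitals mark matches on either strand to the RBPJ core TGGGAA, which is the binding motif of the Notch effector, to the CCAAT box, or to the GC box GGGCGG.
SIX2, chr2:45009453-45009702, minus strand: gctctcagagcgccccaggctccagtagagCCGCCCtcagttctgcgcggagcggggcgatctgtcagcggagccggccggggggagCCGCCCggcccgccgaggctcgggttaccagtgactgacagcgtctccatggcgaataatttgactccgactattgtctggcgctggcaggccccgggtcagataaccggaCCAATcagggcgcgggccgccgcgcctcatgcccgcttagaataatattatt
PAX8, chr2:113278922-113279171, minus strand: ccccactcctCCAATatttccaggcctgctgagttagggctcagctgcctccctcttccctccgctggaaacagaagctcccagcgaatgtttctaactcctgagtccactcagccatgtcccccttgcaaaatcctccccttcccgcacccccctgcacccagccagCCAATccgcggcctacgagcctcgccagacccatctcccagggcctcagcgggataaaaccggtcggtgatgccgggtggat
PAX2, chr10:100735146-100735395, plus strand: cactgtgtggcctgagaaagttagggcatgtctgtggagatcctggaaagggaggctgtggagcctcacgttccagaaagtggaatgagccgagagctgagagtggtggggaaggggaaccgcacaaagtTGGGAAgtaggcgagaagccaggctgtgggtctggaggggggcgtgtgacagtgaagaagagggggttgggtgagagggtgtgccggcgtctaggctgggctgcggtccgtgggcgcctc
JAG1, chr20:10674000-10674249, minus strand: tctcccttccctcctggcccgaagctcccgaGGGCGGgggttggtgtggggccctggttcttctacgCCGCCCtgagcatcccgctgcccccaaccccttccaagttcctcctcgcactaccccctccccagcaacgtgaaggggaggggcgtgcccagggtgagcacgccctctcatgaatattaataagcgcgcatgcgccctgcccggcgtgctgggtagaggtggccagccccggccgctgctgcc
The SIX2 stretch held a CCAAT box 52 bases before the start and GC boxes 163 and 220 bases before it. The PAX8 stretch held CCAAT boxes 82 and 240 bases before its start. The JAG1 stretch held GC boxes 183 and 219 bases before its start. The PAX2 stretch, at the first of 2 listed starts, held the single RBPJ core of the group, 120 bases before its start. These letters are common: among 35116 promoter stretches of the same length, 20.8% held the RBPJ core, 32% the CCAAT box and 42.6% the GC box, and a match is a description of the sequence only.

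From day 21 to day 29 in set 2, the 9 genes did not move as 1 programme. PAX2, PAX8 and JAG1 fell, as did the progenitor factors EYA1 and SALL1, whereas SIX2 and OSR1 rose, and CITED1 and LHX1 did not pass the test. Thus 5 of 9 members were called lower, where 8.33% of all 27650 genes were, and 2 of 9 were called higher, where 10.0% were (limma on log2(CPM + 1), Benjamini-Hochberg adjusted p under 0.05 over all genes). When each library was centred on the median of its genes, the calls over all genes went from 2303 lower and 2778 higher to 4667 lower and 2408 higher, and the median change of all genes from -0.02 to -0.12 on the log2 scale. SIX2 and OSR1 were still called higher and the 5 genes lower under that scaling, with LHX1 called lower in addition (-0.25, adjusted p = 0.0428). In bulk RNA, fewer cells of a type and less RNA per cell cannot be told apart.

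**Figure D1:**
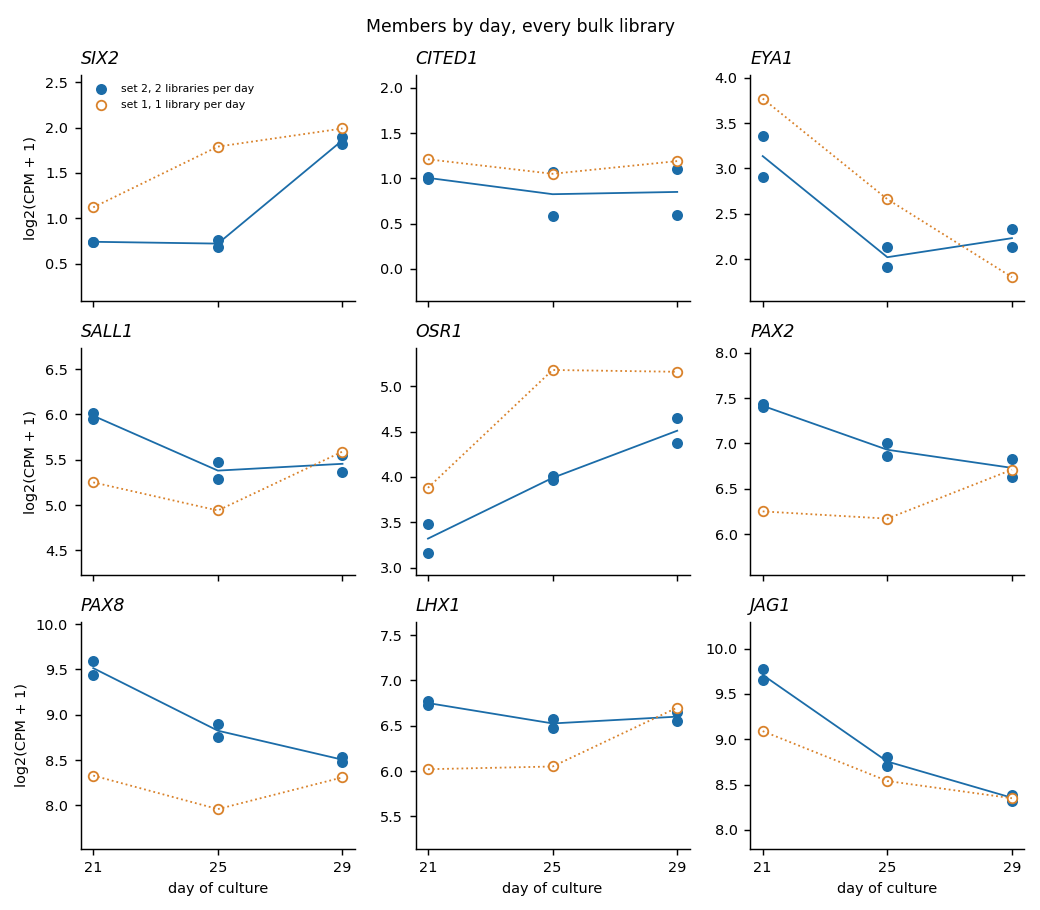
Level of each of the 9 genes, as log2(CPM + 1) on the y axis, against day of culture on the x axis. Filled circles are the 2 libraries per day of set 2, with a line through their means, and open circles joined by a dotted line are the single libraries of set 1. Each panel has its own range on the y axis. In set 2, SIX2 goes from 0.74 on day 21 to 1.82 and 1.90 on day 29, whereas JAG1 goes from 9.65 and 9.77 to 8.39 and 8.32.

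SIX2, the transcription factor that holds nephron progenitors in an undifferentiated state, was close to the detection limit until late. It measured 0.74 in both set 2 libraries of day 21, 0.68 and 0.76 on day 25, and 1.82 and 1.90 on day 29. Both day 29 libraries lay above all 4 earlier ones. Behind these levels stood 14 and 18 reads on day 21, 11 and 15 on day 25, and 76 and 75 on day 29. SIX2 was higher on day 29 than on day 21 by 1.12 (SE 0.13, adjusted p = 0.000843, limma), a 2.17-fold change of CPM + 1. Since SIX2 lies near 0, the added 1 compresses this change: on the reads themselves the log2 fold change was 2.02 in edgeR and 2.03 in DESeq2. The rise fell in the second interval, with -0.02 from day 21 to day 25 (adjusted p = 0.967) and 1.14 from day 25 to day 29 (adjusted p = 0.0129), and the latter call was lost without either library of day 25 (adjusted p = 0.131 without replicate 1 and 0.127 without replicate 2). In set 1, where nothing can be tested, SIX2 was 1.12 on day 21, 1.79 on day 25 and 1.99 on day 29, so it was higher on day 29 there as well, but with most of the difference before day 25.

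Markers of other cell types moved over the same days. Of the 7 muscle-like markers, 6 rose from day 21 to day 29, and their summed level was 53.1 and 81.9 CPM on day 21, 38 and 37.8 on day 25, and 171 and 126 on day 29. Of the 5 listed myogenic progenitor-like markers, 1 (FGFR4) fell and none rose, with sums of 178 to 180 CPM on day 21, 148 to 159 on day 25 and 150 to 166 on day 29. Of the 7 nephron progenitor-like markers, 2 fell, with sums of 199 to 228 CPM on day 21, 159 to 176 on day 25 and 157 to 174 on day 29. Their part in the SIX2 result was not tested.

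CITED1, a co-activator that is lost from cap mesenchyme cells when they become committed, was low throughout. It measured 0.99 and 1.02 on day 21, 0.58 and 1.07 on day 25, and 0.60 and 1.10 on day 29 in set 2, from 9 to 31 reads per library. The days overlapped, and the day 29 difference of -0.16 (SE 0.21, adjusted p = 0.663) was not larger than the spread. In set 1 CITED1 was 1.21, 1.05 and 1.19 on the 3 days. The gene overlaps PIN4 on the opposite strand, and whether reads were counted by strand is not stated in the sources used here. No change of CITED1 was detected, and at this depth a small one could have been missed.

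EYA1, a co-activator and phosphatase, and SALL1, a zinc finger factor of the progenitor state that stays on in later nephron cells, both fell. EYA1 measured 2.91 and 3.36 on day 21, 2.13 and 1.91 on day 25, and 2.13 and 2.33 on day 29. SALL1 measured 5.95 and 6.02, 5.47 and 5.29, and 5.36 and 5.55 on the same days. For both genes the day 21 libraries lay above all later ones, while days 25 and 29 overlapped for SALL1 and met at 2.13 for EYA1. Between days 21 and 29 EYA1 changed by -0.91 (SE 0.20, adjusted p = 0.0159) and SALL1 by -0.53 (SE 0.09, adjusted p = 0.00616). The EYA1 call was lost without day 21 replicate 2 (adjusted p = 0.115) and without day 29 replicate 1 (0.0528), and the SALL1 call without day 21 replicate 2 (0.0634). In set 1 EYA1 was 3.77, 2.66 and 1.80 on days 21, 25 and 29, also lower with time, whereas SALL1 was 5.25, 4.94 and 5.59.

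OSR1, which marks intermediate mesoderm and early progenitors and is also known from fibroblasts, rose on both days. It measured 3.16 and 3.48 on day 21, 4.01 and 3.97 on day 25, and 4.37 and 4.65 on day 29, with no overlap between any 2 days. Its change to day 29 was 1.19 (SE 0.14, adjusted p = 0.00125), or 2.28-fold. In set 1 OSR1 was 3.88, 5.18 and 5.16, so day 29 was higher by 1.27. All 7 mural-like and 5 of 7 stromal-like markers rose over the same interval, with stromal-like sums of 4850 and 4310 CPM on day 21, 10700 and 11100 on day 25, and 13700 and 17000 on day 29. The part of these cells in the OSR1 result was not tested.

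Among the early nephron genes, JAG1, the Notch ligand that specifies proximal fates in the renal vesicle, changed most. It measured 9.65 and 9.77 on day 21, 8.81 and 8.70 on day 25, and 8.39 and 8.32 on day 29, and no 2 days overlapped. The fall was -1.36 (SE 0.09, adjusted p = 0.000109), so that day 21 was 2.56-fold above day 29. PAX8, a paired-box factor needed with PAX2 for nephric epithelium, measured 9.44 and 9.59, 8.90 and 8.75, and 8.53 and 8.48. It changed by -1.01 (SE 0.09, adjusted p = 0.00034), and day 21 was 2.02-fold above day 29. Each day lay apart from the next for PAX8 as well. PAX8 overlaps the antisense transcript PAX8-AS1, and without strand information the reads of the pair cannot be told apart. EYA1, SALL1, LHX1 and JAG1 also overlap genes on the opposite strand, and the same limit holds for them.

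PAX2 measured 7.43 and 7.40 on day 21, 7.0 and 6.86 on day 25, and 6.83 and 6.63 on day 29. The change to day 29 was -0.69 (SE 0.09, adjusted p = 0.00137), and the 3 days did not overlap. LHX1, a LIM homeobox factor of the renal vesicle and the S-shaped body, measured 6.73 and 6.77, 6.57 and 6.48, and 6.55 and 6.65. Its day 21 libraries were the highest, but the difference of -0.15 (SE 0.07, adjusted p = 0.182) did not pass the test. LHX1 thus stood at 105 and 108 CPM on day 21 and at 92.4 and 99.1 CPM on day 29.

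Most of these falls took place in the first interval. Between days 21 and 25, EYA1 (-1.12, adjusted p = 0.0194), SALL1 (-0.61, 0.0116), PAX2 (-0.49, 0.0191), PAX8 (-0.69, 0.0066) and JAG1 (-0.95, 0.00162) were called lower and OSR1 higher (0.67, 0.04), by limma with Benjamini-Hochberg adjustment. These are 5 of 9 members lower, beside 1.99% of all genes, and 1 of 9 higher, beside 3.39%. JAG1 was called lower without any single library, whereas the number of members called lower went down to 1 without day 21 replicate 2 or day 25 replicate 2 and to 3 without day 21 replicate 1 or day 25 replicate 1, and OSR1 was not called without any of these 4 libraries (adjusted p from 0.0995 to 0.206). From day 25 to day 29, SIX2 was the single member called higher, beside 1.25% of all genes, and none was called lower, beside 0.825%. In that interval JAG1 (-0.40, adjusted p = 0.0643), PAX8 (-0.32, 0.124) and PAX2 (-0.20, 0.286) had an unadjusted p under 0.05, and edgeR and DESeq2 each called 1 member lower, JAG1 (adjusted p = 0.0308 and 0.00425).

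Set 1 gave a partly different picture, without replicates. From day 21 to day 29, EYA1 differed by -1.97, JAG1 by -0.74 and PAX8 by -0.02, while SIX2, OSR1, SALL1, PAX2 and LHX1 differed by 0.87, 1.27, 0.35, 0.46 and 0.68. At a log2 difference of at least 1, EYA1 was the single member lower, where 1.41% of all 20121 genes were, and OSR1 the single member higher, where 3.09% were. CITED1 differed by -0.02. SALL1, PAX2 and LHX1 thus had the opposite sign to set 2, and the other 6 members the same sign, with PAX8 and CITED1 close to 0. The tables were normalized separately, so levels were not compared between sets.

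The other genes of the pathway were read from lists of nephrogenesis stages, of which each gene was counted whether or not it moved. Of 11 other nephron progenitor genes, 2 were lower and 2 higher on day 29 than on day 21 in set 2. HOXA11, a patterning gene of the metanephric mesenchyme, rose from 0.33 and 0.22 to 2.01 and 2.19 (log2 change 1.83, adjusted p = 0.00019), and HOXD11, its partner, from 0.16 and 0.03 to 0.91 and 0.86 (0.79, adjusted p = 0.00095). GDNF, the progenitor signal that makes the ureteric bud branch, fell from 2.19 and 2.50 to 1.42 and 1.40 (-0.94, adjusted p = 0.0063), and LYPD1 was the other gene called lower. SIX2 thus rose together with HOXA11 and HOXD11 but not with GDNF. In set 1 HOXA11 was 1.03, 1.07 and 2.35 on the 3 days and GDNF 2.25, 1.79 and 1.68, the same directions without a test.

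Of 9 inducing signals, 3 were lower (FGF8, BMP7 and RSPO1) and 5 higher (WNT4, WNT9B, FGF20, LEF1 and RSPO3). RSPO3, a WNT agonist made by stroma, had the largest change among the genes of these pathway lists, from 3.0 and 2.73 to 5.96 and 6.41 (3.32, adjusted p = 5.73e-05). FGF8, which is made in the renal vesicle and keeps its cells alive, fell from 2.75 and 2.85 to 0.39 and 0.71 (-2.25, adjusted p = 0.00019), and RSPO1 by 2.20 (adjusted p = 0.000248). Of 12 Notch pathway genes 6 were lower and none higher, with a median change of -0.57 beside -0.02 for all genes. HEY1 and HES4, transcriptional targets of Notch, changed by -1.40 (adjusted p = 0.000536) and -1.13 (adjusted p = 9.88e-05), and the ligand DLL1 by -0.75 (adjusted p = 0.0239), alongside the fall of JAG1. In set 1, without a test, 7 of 11 listed Notch pathway genes were lower on day 29 and 4 higher (median -0.12). The summed level of this list was 1940, 2120 and 2230 CPM on days 21, 25 and 29 in set 1. In set 2 it was 2540 and 2690 CPM on day 21 and 2310 and 2230 on day 29.

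Of 10 renal vesicle and S-shaped body genes, 5 were lower and 2 higher, with a median of -0.49. IRX1, IRX2 and IRX3, which pattern the middle segment of the S-shaped body, changed by -1.92 (adjusted p = 4.08e-05), -1.68 (adjusted p = 5.94e-05) and -1.19 (adjusted p = 0.000493). POU3F3 also fell, whereas SOX9 and CDH6 rose. In set 1, without a test, 6 of these 10 genes were lower and 4 higher (median -0.23). Of the 8 early nephron-like markers, some of them shared with this list, 3 fell and 2 rose in set 2. Their sums there were 1060 and 1140 CPM on day 21, 1010 and 968 on day 25, and 1100 and 1140 on day 29. In set 1 the sums of these markers were 917, 886 and 1150 CPM on days 21, 25 and 29. Of 7 listed ureteric bud genes, none was lower and 3 were higher: RET, the receptor of GDNF, by 2.1 (adjusted p = 0.000188), WNT11 by 1.36 (adjusted p = 0.000689) and GFRA1 by 0.50 (adjusted p = 0.0249), which in set 1 differed by -0.22. AQP2, of the collecting duct, is not listed in set 2.

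The fall was not limited to early genes. Of 8 podocyte genes 6 were lower and none higher (median -1.13), with NPHS1, a slit diaphragm gene, at -1.90 (adjusted p = 0.00413). Of 8 proximal tubule genes 6 were lower and none higher (median -1.06), with HNF4A, a regulator of proximal tubule genes, at -1.78 (adjusted p = 3.4e-05) and SLC34A1 at -1.80 (adjusted p = 0.00053). Of 5 listed distal and loop of Henle genes 3 were lower and 1 higher. In set 2 the timing of the calls differed from that of the early nephron members, though the 2 intervals were not compared by a test. From day 21 to day 25, when PAX2, PAX8 and JAG1 were called lower, 0 of 8 podocyte genes (median -0.34) and 1 of 8 proximal tubule genes (HNF4A, list median 0.22) were called lower. In the interval to day 29, when no member was called lower, 6 of 8 proximal tubule genes were (median -1). Of 8 podocyte genes 0 were called lower then, though their median of -0.75 was larger in size than the -0.26 of the early nephron members. This timing was not the same in set 1, where all 8 podocyte genes were already lower on day 25. The set 1 medians to day 25 and from there to day 29 were -0.8 and -0.66 for podocyte genes. They were 0.1 and -0.38 for proximal tubule genes, and -0.22 and 0.45 for the early nephron members. In set 1, without a test, all 8 podocyte genes were lower on day 29 (median -1.41), 6 of 8 proximal tubule genes (median -0.37, with SLC34A1 at 0.47), 2 of 4 distal genes and 2 of the 4 early nephron members (median 0.22). Summed podocyte-like markers were 10500 and 11000 CPM on day 21, 8580 and 8760 on day 25, and 7180 and 3330 on day 29, and summed proximal tubule-like markers were 1000 and 839, 845 and 861, and 498 and 381. The part of nephron content in the fall of PAX2, PAX8 and JAG1 was not tested.

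**Figure D2:**
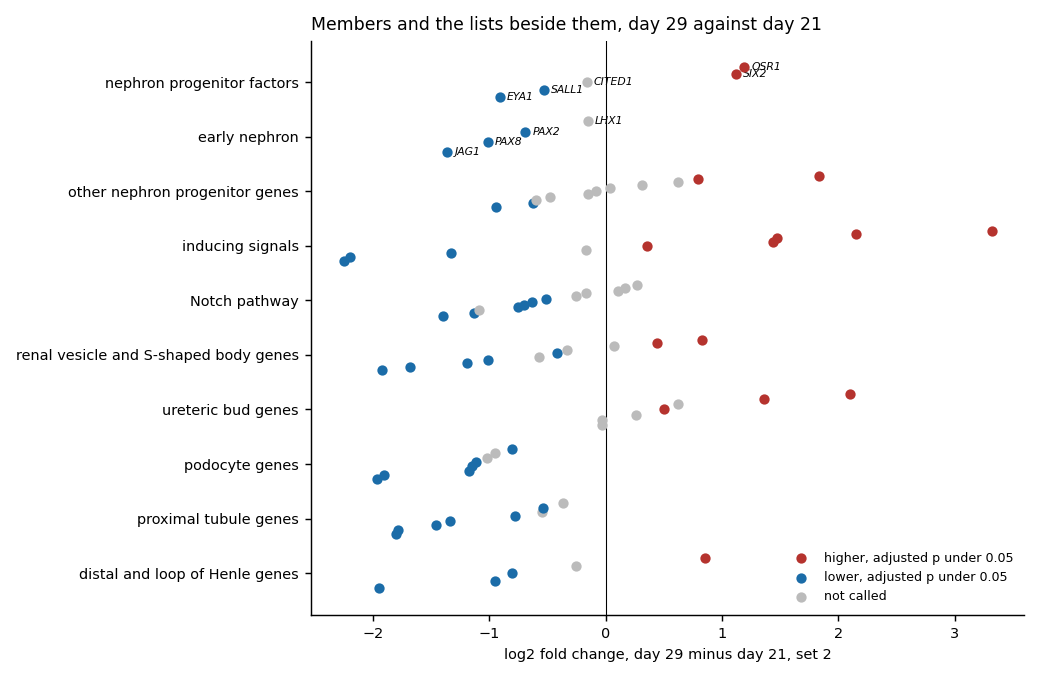
Log2 change from day 21 to day 29 in set 2 on the horizontal axis, with 1 point per gene and 1 row per list, members first. Red points were called higher, blue points lower and grey points neither (limma, adjusted p under 0.05). The Notch, podocyte and proximal tubule rows hold 6 blue points each and no red one, and the members hold 5 blue and 2 red.

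The single-cell libraries show which cells carried these genes on day 24. Cells were grouped without using the 9 genes, and groups were called "X-like" from marker lists. The Ctrl library held 1336 proximal tubule-like and 1425 podocyte-like cells, together 2761 nephron cells with 33.6% of all UMIs, beside stromal-like, proliferating-like, neuronal-like, neural progenitor-like, Schwann or neural crest glia-like, muscle-like, myogenic progenitor-like, coelomic or gonadal epithelium-like and unnamed cells. No cluster reached the 3 raised markers required for a nephron progenitor-like name, at any of 3 clustering resolutions: the most was 2 of 7 (DAPL1 and LYPD1), in a podocyte-like cluster. The proximal tubule-like cluster also had 4 of 8 early nephron markers raised, among them POU3F3, CDH6 and EMX2, so early and later tubule were not separated there. At the finest resolution 1126 Ctrl cells formed a tubule cluster with 5 of the 8 early nephron markers raised. The marker rule named it early nephron-like. Its 10 leading genes held MAL and WFDC2, listed as distal tubule markers, beside POU3F3. With 2 of 7 distal tubule markers raised it fell short of a distal tubule-like name. Whether these cells were early nephron or distal tubule was not tested.

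Levels in cells are CPM, computed from the UMIs summed over each class, and carry 95% Poisson intervals (exact) for counting error only. There was 1 library per condition, so no test between classes or conditions was made.

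SIX2 was highest in the myogenic progenitor-like cells at 30.5 CPM (interval 26.5 to 35.0). These cells were named from 3 raised markers, PAX7, PAX3 and CDH15, out of 6. No cluster carried this name at either finer resolution, and the Ctrl library clustered alone gave instead a muscle-like cluster of 999 cells with 3 of these 6 markers raised. The 859 cells held 206 of the 416 SIX2 UMIs of the Ctrl library, or 49.5%. Proliferating-like cells followed at 14.6 (11.9 to 17.6), and the intervals did not overlap. The podocyte-like cells were at 1.11 (0.633 to 1.80) and the proximal tubule-like cells at 0.466 (0.213 to 0.884), from 16 and 9 UMIs. The nephron cells, with 33.6% of all UMIs, thus held 6.01% of those of SIX2. With each cell thinned to 1500 UMIs, SIX2 was seen in 36 of 832 myogenic progenitor-like cells (4.33%), in 2 of 1295 proximal tubule-like cells (0.154%) and in 0 of 801 coelomic or gonadal epithelium-like cells (exact binomial interval up to 0.459%). Unthinned, the share of the myogenic progenitor-like cells was 18.4%.

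EYA1 was highest in the same class, with 25.0 CPM (21.4 to 29.1) in the myogenic progenitor-like cells, which held 38.2% of its UMIs. The proximal tubule-like cells were at 2.79 (2.1 to 3.65) and the podocyte-like cells at 2.42 (1.69 to 3.37), which overlap, and 20.1% of EYA1 UMIs lay in nephron cells. CITED1 was highest in muscle-like cells at 9.76 (6.43 to 14.2), from 27 UMIs, which overlapped the myogenic progenitor-like cells at 6.22 (4.48 to 8.41). Of its 304 UMIs, 12.2% lay in nephron cells and 25.0% in neuronal-like cells. In the TNF library CITED1 was highest instead in Schwann or neural crest glia-like cells at 11.2 (8.3 to 14.7), beside 5.14 in muscle-like cells. OSR1 was highest in stromal-like cells at 31.9 (29.0 to 35.0), with 50.9% of its UMIs, and 9.93% lay in nephron cells. SALL1 alone among the progenitor factors lay mostly in nephron cells (64.4%), with 16.7 (14.9 to 18.6) in proximal tubule-like cells, level within counting error with the neural progenitor-like cells at 16.8 (13.5 to 20.6).

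The 4 early nephron genes had another order. All were highest in the proximal tubule-like cells, with PAX8 at 241 CPM (235 to 248), JAG1 at 204 (197 to 210), LHX1 at 124 (119 to 129) and PAX2 at 96.8 (92.5 to 101). The nephron cells held 84.7% of the PAX8 UMIs, 80.1% of PAX2, 79.9% of LHX1 and 78.1% of JAG1. Podocyte-like cells came next for PAX8 (149, 143 to 156), LHX1 (69.8, 65.6 to 74.3) and JAG1 (64.3, 60.2 to 68.6). At the finest resolution, where most of these tubule cells carried no proximal tubule name, the cells still named so were at 188 for PAX8, 171 for JAG1, 83.5 for LHX1 and 56.9 for PAX2. The 1126 cells named early nephron-like there were at 256, 216, 135 and 108. For PAX2 the muscle-like cells were next at 32.2 (25.8 to 39.6), beside podocyte-like cells at 28.8.

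The podocyte-like cells were made of 2 clusters with unequal levels. In the larger, of 950 Ctrl cells, PAX8 was at 33.9 CPM, LHX1 at 12.6, JAG1 at 17.2 and PAX2 at 14.4. In the smaller, of 475 cells, the same genes were at 336, 162, 140 and 52.0. The smaller cluster is the one with DAPL1 and LYPD1 raised, so a part of the podocyte-like cells carried PAX8 and LHX1 above the proximal tubule-like average while the rest carried little. Outside the nephron, LHX1 reached 83.8 CPM in 1 of the 2 neuronal-like clusters and 3.45 in the other.

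**Figure D3:**
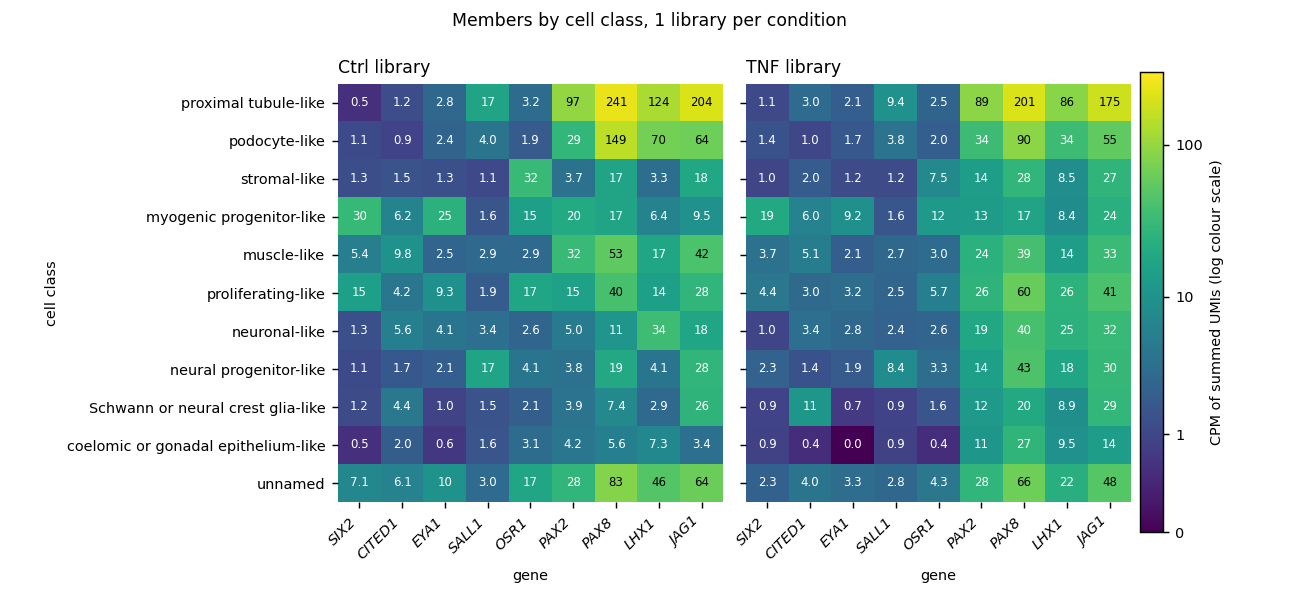
Level of each gene (columns) in each cell class (rows) as CPM, in the Ctrl library and the TNF library. The early nephron genes are highest in the proximal tubule-like row of the Ctrl library, from 96.8 for PAX2 to 241 for PAX8. SIX2 and EYA1 are highest in the myogenic progenitor-like row, at 30.5 and 25.0.

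**Figure D4:**
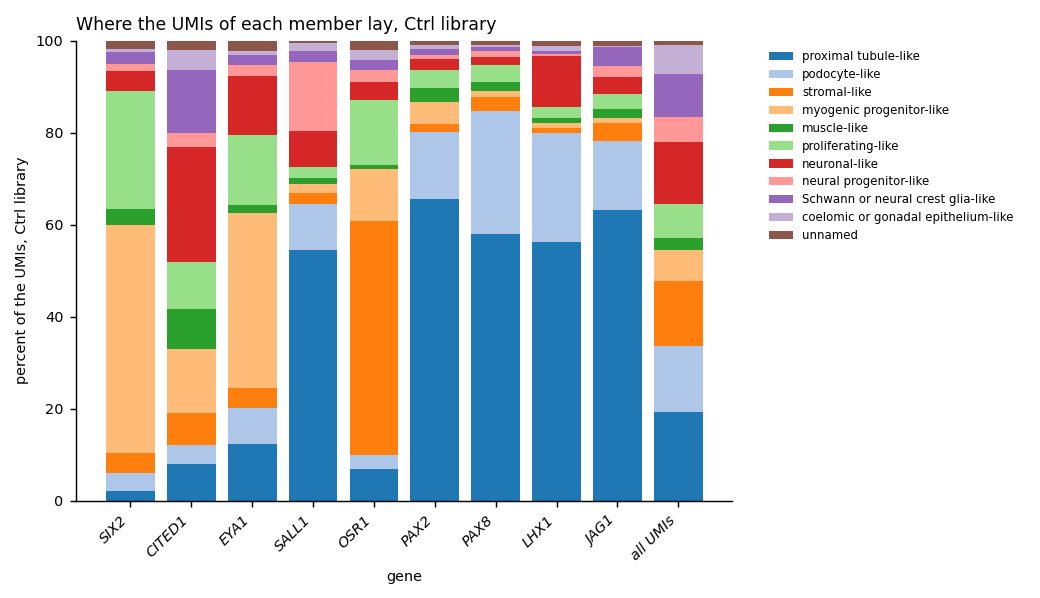
Share of each gene's UMIs in the Ctrl library, in percent, that lay in each cell class, with the share of all UMIs as the reference bar. Nephron classes hold 33.6% of all UMIs, 6.01% of those of SIX2, 64.4% of SALL1 and 84.7% of PAX8.

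Cells were next asked whether they held several of these genes at once. Of the 328 Ctrl cells with a SIX2 UMI, 23 also had CITED1, 63 EYA1, 7 SALL1 and 36 PAX8, and no cell had SIX2, CITED1 and SALL1 together. PAX7, which marks muscle stem cells, was seen in 91 of the SIX2 cells (27.7%), beside 4.64% of all cells. At least 3 of the 5 progenitor factors were seen in 16 of 11906 cells, 8 of them myogenic progenitor-like, 4 proliferating-like and 2 proximal tubule-like. By contrast, PAX2, PAX8, LHX1 and JAG1 were seen together in 527 cells, of which 389 were proximal tubule-like and 102 podocyte-like. The progenitor factors have fewer UMIs than the early nephron genes, so cells holding several of them are more easily missed. COL3A1, a stromal collagen, was seen in 651 of 731 cells with OSR1 (89.1%), beside 61.7% of all cells.

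Of the 11 other nephron progenitor genes, 3 (TMEM100, DAPL1 and ROBO2) were highest in a nephron class and 4 in the myogenic progenitor-like cells, among them MEOX1 at 31.1 CPM, HOXA11 at 29.9 and HOXD11 at 14.8. Of the 10 renal vesicle and S-shaped body genes, 6 were highest in a nephron class, as were 3 of 9 inducing signals and 4 of 12 Notch pathway genes. Among the 8 ureteric bud genes, 1 (GATA3) was highest in a nephron class and 3 in the myogenic progenitor-like cells. The share of all genes that were highest in each class was not computed, so these counts describe the lists only. No cluster was named ureteric bud-like at any of 3 resolutions, with at most 1 of 7 markers raised. RSPO3 and WNT4 were highest in stromal-like cells, at 638 and 161 CPM.

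The genes most like each member were found from the correlation of log levels over the 15 clusters of the Ctrl library. These clusters share 1 library and differ in depth, with median UMIs per cell from 941 to 11162, so the values are descriptions. SIX2 was most like NTF3 (r = 0.914), GREM1 (0.896) and KCNE5 (0.883). EYA1 was most like GREM1 (0.874), ABCB11 (0.845) and MYF5 (0.836), of which MYF5 is a muscle determination factor. OSR1 was most like HIC1 (0.941), HGF (0.933) and FAP (0.931), genes known from fibroblasts. CITED1 was most like GTPBP4 (0.894), TFCP2 (0.892) and GSPT1 (0.886), and SALL1 most like MAP7 (0.906), SSX2IP (0.904) and C11orf49 (0.902).

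PAX2 was most like TSPAN12 (r = 0.945), HLA-DMB (0.926) and UGT2B7 (0.920), the last an enzyme of proximal tubule and liver. PAX8 was most like CLDN7 (0.934), EMID1 (0.929) and DCDC2 (0.928), and JAG1 most like SPATA4 (0.932), IRX4 (0.911) and DCDC2 (0.909), so DCDC2 was shared by both. LHX1 was most like LHX1-DT (0.988), its divergent neighbour, followed at a distance by SHANK2 (0.863) and KISS1R (0.820). Whether the UMIs of LHX1 and LHX1-DT were fully separated was not checked.

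TNFα, the inflammatory cytokine, moved some of these genes past the test in bulk RNA and not others. Of the 8 members listed in the TNF set, JAG1 was higher and OSR1 and LHX1 were lower after treatment. That is 2 of 8 lower, where 10.8% of all 21093 genes were, and 1 of 8 higher, where 8.42% were (limma with a term for treatment time, so that the times stand in for replicates). CITED1 is not listed in this table.

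JAG1 measured 8.34 in VC and 8.69 in TNF at 24 h, and 8.42 and 9.07 at 48 h. Both TNF libraries lay above both VC libraries, and the difference was 0.50 (adjusted p = 4.52e-05), the opposite direction to the change of JAG1 over days. OSR1 measured 2.94 and 2.40 at 24 h and 3.86 and 3.06 at 48 h, a difference of -0.67 (SE 0.12, adjusted p = 0.000361). OSR1 was lower with TNF at each time, but the treated 48 h library lay above the 24 h VC library. LHX1 measured 6.38 and 6.11 at 24 h and 6.66 and 6.52 at 48 h, a difference of -0.20 (adjusted p = 0.0379). This call did not hold in edgeR (adjusted p = 0.0726) or DESeq2 (0.322), and without the time term none of the 3 calls held (JAG1 0.0628, OSR1 0.351, LHX1 0.581).

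The other 5 members did not pass the test. SIX2 measured 0.36 in VC and 0.51 in TNF at 24 h, and 0.63 and 0.85 at 48 h (difference 0.18, adjusted p = 0.267). PAX2 measured 7.10 and 7.11, then 7.04 and 7.27 (0.12, adjusted p = 0.273), and PAX8 8.57 and 8.41, then 8.73 and 8.77 (-0.07, adjusted p = 0.562). EYA1 measured 2.1 and 1.91, then 1.85 and 2.08 (0.02, adjusted p = 0.947), and SALL1 5.13 and 5.12, then 5.40 and 5.57 (0.08, adjusted p = 0.579). For EYA1, SALL1 and PAX8 the sign at 24 h was opposite to that at 48 h.

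In the same libraries all 8 podocyte and all 8 proximal tubule genes were lower with TNF, with medians of -0.83 and -1.10. Summed podocyte-like markers went from 6530 to 3930 CPM at 24 h and from 6050 to 2870 at 48 h, and summed proximal tubule-like markers from 825 to 399 and from 824 to 438. PAX2 and PAX8 lay mostly in these classes in the single cells, which came from whole wells, and did not pass the test in these bulk libraries. With 1 library per treatment and time, a change of PAX2 or PAX8 may have been missed. Of 10 renal vesicle and S-shaped body genes, 1 was lower and 3 were higher, and of 11 listed Notch pathway genes 1 was lower and 3 were higher. Over all genes of the TNF set, 10.8% were called lower and 8.42% higher.

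**Figure D5:**
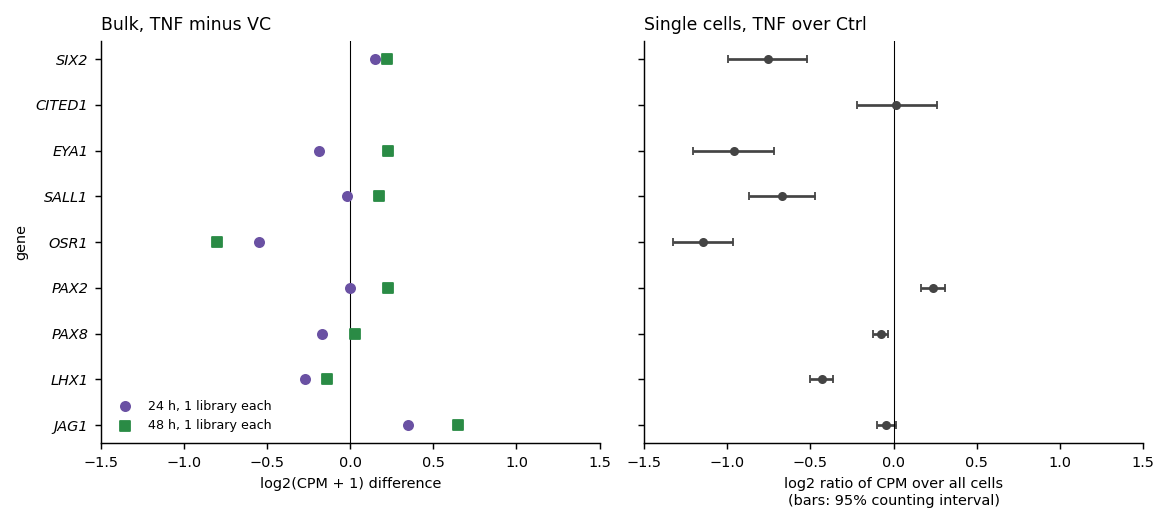
Left, difference between TNF and VC in log2(CPM + 1) for the 8 listed members in bulk RNA, at 24 h and at 48 h. Right, log2 ratio of TNF to Ctrl over all cells of the single-cell libraries, with bars for the 95% counting interval. OSR1 is lower in both panels, and JAG1 is higher in bulk (0.35 at 24 h and 0.65 at 48 h) but not in single cells.

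In the single cells, over all cells of each library, 6 of 9 members were lower in the TNF library and 1 higher beyond counting error. By the same measure 32.5% of the 23040 genes with at least 10 UMIs were lower and 18.0% higher, in libraries of very unequal depth. The ratio of TNF to Ctrl was 0.452 for OSR1 (interval 0.399 to 0.512), 0.514 for EYA1 (0.434 to 0.608), 0.592 for SIX2 (0.501 to 0.698), 0.628 for SALL1 (0.548 to 0.720), 0.741 for LHX1 (0.706 to 0.777) and 0.948 for PAX8 (0.917 to 0.979). It was 1.18 for PAX2 (1.12 to 1.24), 0.970 for JAG1 (0.935 to 1.01) and 1.01 for CITED1 (0.858 to 1.20). With 1 library per condition, these intervals compare the libraries and not the conditions.

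Within classes, OSR1 in stromal-like cells was 31.9 CPM in Ctrl and 7.45 in TNF, a ratio of 0.234 (0.189 to 0.287). At the finest resolution the OSR1 ratio was 0.183 in a cluster named mural-like and 0.184 in a stromal-like cluster. In another stromal-like cluster it was 0.806 (0.414 to 1.51). SIX2 in the myogenic progenitor-like cells was 30.5 and 19.4, a ratio of 0.637 (0.482 to 0.835), and EYA1 there had a ratio of 0.367 (0.248 to 0.531). In the proximal tubule-like cells the ratio was 0.566 for SALL1, 0.699 for LHX1, 0.832 for PAX8, 0.861 for JAG1 and 0.924 for PAX2. CITED1 went the other way there, with a ratio of 2.43 (1.45 to 4.17) from 45 TNF and 24 Ctrl UMIs. The intervals of SIX2, EYA1 and OSR1 in that class included 1. In the podocyte-like cells it was 0.489 for LHX1, 0.605 for PAX8, 0.850 for JAG1 and 1.19 for PAX2. The larger podocyte-like cluster held 950 Ctrl and 3474 TNF cells, with PAX8 at 33.9 and 41.8 CPM and LHX1 at 12.6 and 14.1, and the smaller 475 and 1437 cells, with PAX8 at 336 and 186 and LHX1 at 162 and 73.6. At the finest resolution 703 TNF cells and 1 Ctrl cell formed a podocyte-like cluster of their own, so the class was not made of the same clusters in both libraries.

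Levels of the same genes also differed between the libraries in classes where they were low. In coelomic or gonadal epithelium-like cells, PAX8 was 5.61 CPM in Ctrl and 27.1 in TNF, PAX2 4.21 and 11.2, and JAG1 3.43 and 13.8, and in stromal-like cells PAX2 was 3.71-fold and JAG1 1.51-fold higher in TNF. In the TNF library the nephron cells held 69% of the PAX8 UMIs, against 84.7% in Ctrl, with 37.9% of all UMIs against 33.6%. With cells thinned to 1500 UMIs, which left out 953 Ctrl cells and no TNF cell, PAX8 was seen in 28.4% of proximal tubule-like cells in Ctrl and 18.3% in TNF, and in 1.25% and 7.31% of the coelomic or gonadal epithelium-like cells. The part of RNA free in the suspension, and of the unequal depth, in the differences between these libraries was not tested.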

How the data were processed

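Bulk RNA of 13 libraries and UMI counts of 2 single-cell libraries were re-analysed from the deposited files. STAR 2.7.8a, HTSeq 0.11 and voom were used by the authors for alignment, counting per gene and normalization (versions per the labels), and log2 values were deposited. These were found to be log2(CPM + 1), from which whole reads were recovered for 100% of values within 0.01 reads. A further single-cell library, D25 NLW50 Ctrl, was not analysed here. The single-cell UMI counts were deposited unnormalized, made with Cell Ranger 6.0.1 per the file headers, while the labels name 2.1.1. The submitters' processing notes list hg19 as well as hg38 and GRCh38, without saying for which table. The bulk depth given in the text sets the precision: SIX2 and CITED1 rest on 9 to 76 reads per library in set 2.

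Set 2 was fitted with 1 mean per day by limma 3.58.1 (R 4.3.3, eBayes with trend), and the TNF set with treatment and time. P-values are two-sided, with Benjamini-Hochberg adjustment across every gene in the table. Set 1 has no replicates and was not tested. Replicate numbers of set 2 did not pair the samples by the rule used (correlations of deviations 0.061 to 0.202, where each had to exceed 0.1). Replicates differed beyond sampling noise, most on day 29 (chi-square per degree of freedom 5.01 on day 21, 4.9 on day 25 and 17.4 on day 29).

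Cells with over 500 genes were kept. After Harmony alignment of 30 components of 3473 variable genes, without the members, they were clustered at resolution 0.25 (scanpy 1.11.5). A class needed 3 raised markers, each at 20 CPM or more and a log2 ratio of at least 1 to all other cells with 10 CPM added. Doublets were kept, since the automatic threshold of Scrublet marked no cell, and leaving out cells with a score above 0.25 (6.31% of Ctrl and 24% of TNF) was an alternative chosen after seeing the data. Genes most like a member were ranked by Pearson's r over clusters among genes with at least 50 UMIs.

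The members and the gene lists were chosen with earlier results of these data known. All 9 members are named, and from each other list up to 3 called genes with the largest absolute change from day 21 to day 29, with others of 5 or fewer that a count refers to. Some genes of these lists are counted but not reported here by name. Alternatives were edgeR 4.0.16 and DESeq2 1.42.0 on the recovered reads, no added 1, a mean CPM of at least 1, median centring, no trend, a replicate block, an added log2 fold change of 1, leaving out each library, other clusterings and the doublet filter. The scripts were tested on simulated data. Promoters came from RefSeq (GRCh38.p14).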

Additional observations from a re-analysis of the deposited data

Results flagged for a closer look

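From day 21 to day 29, SALL1, PAX2 and LHX1 differed in set 1 by 0.35, 0.46 and 0.68 on the log2 scale, the opposite sign to set 2, where the libraries of day 29 lay below those of day 21. Set 1 has 1 library per day, and the difference between the sets was not tested.

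In the TNF set, EYA1, SALL1 and PAX8 were higher in TNF than in VC by 0.23, 0.17 and 0.03 at 48 h, where they were lower at 24 h. There is 1 library per treatment and time, and this difference was not tested either.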

How the results depend on the processing

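Between day 21 and day 29, JAG1, PAX8, PAX2, SIX2 and OSR1 were called in the same direction under 13 of 13 alternatives other than the fold rule, SALL1 under 12 and EYA1 under 11. Requiring a log2 change of at least 1 left 2 members lower, and without each library in turn 3 to 5 were lower, where a day left with 1 library was assumed to vary like the others. From day 21 to day 25 the fold rule left 1 lower and 0 higher, and leaving out libraries gave 1 to 5 lower and 0 to 1 higher, while without the trend 0 were higher and PAX2 was not called (adjusted p = 0.0608). PAX2 was called lower there under 8 of 13 alternatives, and LHX1 under 1 (median centring, adjusted p = 0.0461). From day 25 to day 29, 1 member (JAG1) was lower in edgeR, DESeq2, without the added 1, at a mean CPM of at least 1, and under median centring, against 0 as reported. With a replicate block JAG1 was also the 1 member lower there (adjusted p = 0.0437), and the block changed no other call of a member. DESeq2 called 2 members higher, and leaving out libraries gave 0 to 1 lower and 0 to 1 higher. With TNF, 1 member was lower in edgeR, DESeq2 and without the trend, and 0 were lower and 0 higher without the time term or under the fold rule, which was added after seeing the data. The causes were not tested.

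Signs changed only for small differences that passed no test. CITED1 ranged over left-out libraries from -0.41 to 0.09 from day 21 to day 29, from -0.43 to 0.06 from day 21 to day 25 and from -0.23 to 0.27 from day 25 to day 29 (-0.003 under median centring). SIX2 ranged from -0.06 to 0.02 from day 21 to day 25, and SALL1 from -0.02 to 0.17 from day 25 to day 29. Over all genes, calls lower and higher were 2303 and 2778 from day 21 to day 29 (ranges over alternatives 395 to 4667 and 971 to 3234), 549 and 937 from day 21 to day 25 (50 to 1281 and 191 to 1336), 228 and 346 from day 25 to day 29 (0 to 822 and 0 to 1192, with 0 without either day 25 library) and 2285 and 1776 with TNF (149 to 2535 and 227 to 2322). The replicate block gave 832 lower from day 21 to day 25 and 442 lower and 676 higher from day 25 to day 29. For PAX2, PAX8, LHX1 and JAG1 the level in proximal tubule-like cells of the Ctrl library fell to 56.9, 188, 83.5 and 171 CPM at resolution 1.0. Of the 57 single-cell values under alternatives 49 moved by less than counting error. SIX2 and CITED1 are limited by depth.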
